A study of Mus musculus with 3 samples.

Results

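The genes described here make or use nitric oxide, arginine and itaconate in macrophages. They were *Nos2*, *Gch1*, *Slc7a2*, *Ass1*, *Asl*, *Arg1*, *Arg2*, *Odc1* and *Irg1*, which the array names *Acod1*, and they were taken by gene name with all of their probes. The 9 genes were read by 11 of the 56605 probes, which carried 36870 gene names in all. The cells were RAW264.7, a mouse macrophage line, and the study asked how 2 *L. plantarum* strains isolated from tea leaves, LOC1 and LOC3, alter the answer of these cells to LPS, a component of the outer membrane of Gram-negative bacteria sensed by TLR4. Total RNA was measured on 1-colour Agilent arrays, with 1 array for macrophages given LPS alone, 1 for LOC1 + LPS and 1 for LOC3 + LPS. All 3 were taken 3 h after LPS, whose dose the methods put at 50 ng/mL and the results text at 100 ng/mL, and the lactobacilli came before it, for 12 h by the series design and 24 h by the methods, after which the wells were washed. Unchallenged macrophages enter only as the reference of the deposited log2 ratios, and their own array was not used here.

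In macrophages, inducible nitric oxide synthase (*Nos2*) makes nitric oxide and citrulline from arginine and needs the cofactor tetrahydrobiopterin, whose synthesis begins with GTP cyclohydrolase (*Gch1*). The cationic amino acid transporter *Slc7a2* brings arginine into the cell, and argininosuccinate synthase (*Ass1*) and lyase (*Asl*) turn citrulline back into arginine. The arginases (*Arg1*, *Arg2*) draw on the same arginine to make ornithine, which ornithine decarboxylase (*Odc1*) passes on to the polyamines. *Acod1* encodes the enzyme that makes itaconate from the citrate cycle intermediate cis-aconitate, and it is known as a gene strongly induced by LPS.

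With 1 array per condition there was no SD between samples, no test and no p-value, and a log2 difference of 1 (2-fold) was used as a fixed size. Intensities were compared after each array was divided by its 75th percentile, an intensity of 555 for LPS, 513 for LOC1 + LPS and 516 for LOC3 + LPS. Signals well above background were found for 47.8% to 51.9% of probes, and no spot was saturated. From the spread of repeated spots within an array, the technical SD of a log2 difference was 0.06 for bright probes and 0.31 for dim ones, which leaves out all variation between cultures. All 9 macrophage markers (*Adgre1*, *Cd68*, *Csf1r*, *Itgam*, *Lyz2*, *Cd14*, *Spi1*, *Tyrobp* and *Fcer1g*) were well above background on the 3 arrays, at intensities of 2641 to 244528 with LPS. Of the markers of other cells, *Cd3e*, *Pecam1* and *Col1a1* were above background on the 3 arrays at no more than 396 with LPS, and *Epcam* was so with LPS alone. Of the macrophage markers, 3 of 9 had log2 differences above 0 with each strain, beside 51.4% of all genes with LOC1 and 55.6% with LOC3. Their medians were -0.20 (LOC1) and -0.08 (LOC3), and the part of this in the differences below was not tested. In bulk RNA, fewer cells of a type and less RNA per cell cannot be told apart.

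The probes below are shown because the results turn on what they read, each by its first 30 of 60 bases, 5′ to 3′. *Nos2* was read at chr11:78773567-78773626 of mm9 on the plus strand, *Gch1* at chr14:47775348-47775407 on the minus strand and *Acod1* at chr14:103455171-103455231 on the plus strand. *Asl* and *Odc1* had 2 probes each. The brighter *Asl* probe spanned chr5:130487513-130487736 and the dimmer one chr5:130498273-130498332, both on the minus strand, and the dimmer probe was assigned to another transcript. The brighter *Odc1* probe lay at chr12:17557831-17557890 and the dimmer one at chr12:17554799-17554858, both on the plus strand.
Nos2: caccatgccgccgctctaatacttagctgc
Gch1: cgtacattccagtttcagttggtacacttg
Acod1: agacagtttgacttggggtggtgaacagtg
Asl, brighter: attcccctgttctcaggtgatgtgagtcac
Asl, dimmer: ataaaaggatgtaattgcagtaccatgtaa
Odc1, brighter: atgggccagaagcttatgttgtgacccatt
Odc1, dimmer: gggttatctatgcaaatccttgtaaacaag

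*Acod1*, *Nos2*, *Slc7a2*, *Gch1*, *Ass1* and *Odc1* were all listed as higher after LPS than in unchallenged macrophages, 6 of the 9 genes. Genes listed as at least 2-fold higher were 9.7% of all gene names on the array, and those listed as lower were 8.66%. None of the 9 was listed as lower. The values are the deposited log2 ratios, in which only sizes of 1 or more are given, so a gene without a value cannot be placed here.

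The ratio of *Acod1* to unchallenged macrophages was 10.67 on the log2 scale with LPS (1634-fold), 11.06 with LOC1 + LPS and 11.09 with LOC3 + LPS. *Nos2* had ratios of 6.98 with LPS (126-fold), 7.86 with LOC1 + LPS (233-fold) and 7.87 with LOC3 + LPS (235-fold). These were the widest ratios of the 6 listed genes, and in both the 2 arrays with lactobacilli lay above the array with LPS alone. *Slc7a2*, the arginine transporter, stood at 4.66 (25.3-fold) with LPS, 4.59 with LOC1 + LPS and 4.52 with LOC3 + LPS. *Gch1* stood at 3.53 (11.5-fold), 4.25 (19.1-fold) and 4.23 (18.8-fold) in the same order, and *Ass1* at 2.59 (6.03-fold), 2.97 (7.86-fold) and 3.16 (8.91-fold). The cofactor enzyme and the citrulline-recycling enzyme thus followed *Nos2* in having their lowest ratio on the array with LPS alone, whereas the transporter had its highest there. The dimmer *Odc1* probe stood at 1.69 with LPS (3.23-fold) and was 2.83-fold and 2.73-fold above unchallenged macrophages with LOC1 + LPS and LOC3 + LPS, and the brighter one was not in the deposited table. The signal that these ratios imply for unchallenged macrophages was above the lowest detected signal of the LPS array (16.3) for each of the 6 probes, and was lowest for *Acod1* at 97.2. The 3 columns share 1 unchallenged reference, so its error is in every ratio, and their scale follows the scanner intensities up to a constant per array.

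**Figure D1:**
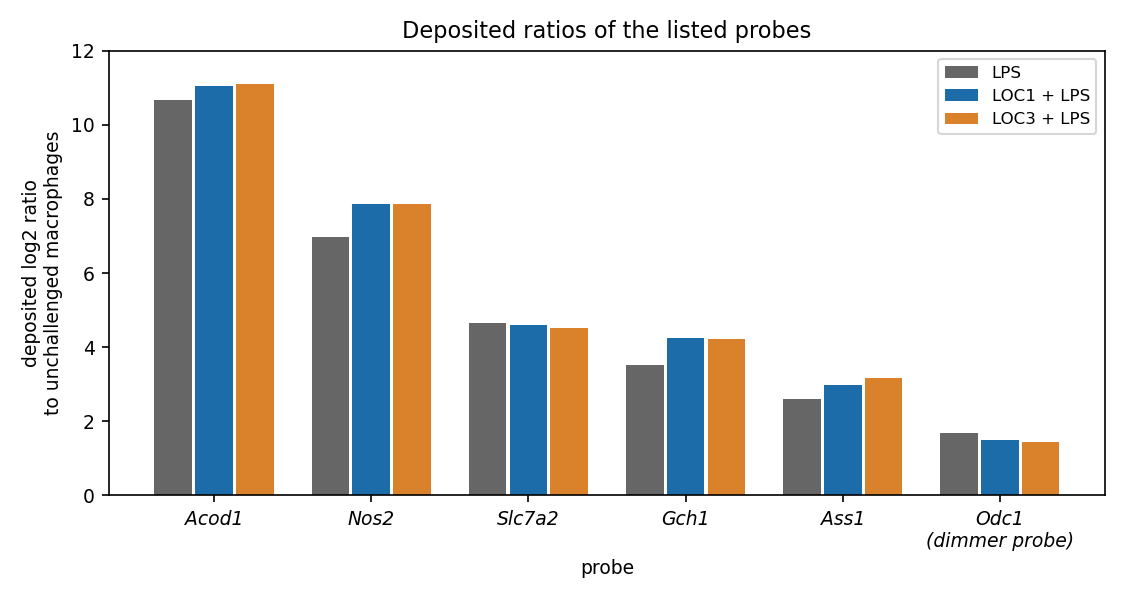
Deposited log2 ratio to unchallenged macrophages (vertical axis) for the 6 listed probes of the 9 genes, with 1 bar per array (LPS, LOC1 + LPS, LOC3 + LPS) and no replicates. *Acod1* (10.67 with LPS) and *Nos2* (6.98 with LPS) have the tallest bars, and in *Acod1*, *Nos2*, *Gch1* and *Ass1* both bars with lactobacilli are above that with LPS alone.

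With either strain before LPS, *Nos2* and *Gch1* were higher than with LPS alone by 1.59- to 1.81-fold, *Ass1* and *Acod1* by 1.27- to 1.44-fold, and *Asl*, *Slc7a2* and *Odc1* differed by under 1.14-fold in their brighter probes. *Arg1* and *Arg2* were not well above background on any array. None of the 7 measurable genes passed 2-fold with either strain, against 2.49% of all genes tested that were at least 2-fold higher with LOC1 and 2.98% with LOC3, and 3.81% and 3.18% that were lower. Log2 differences were above 0 for 5 of the 7 with both strains (*Nos2*, *Gch1*, *Ass1*, *Acod1* and *Asl*), where the share over all genes was 51.4% with LOC1, 55.6% with LOC3 and 47% with both. Under median scaling 7 of the 7 were above 0 with each strain. The median log2 difference of the 7 was 0.35 with LOC1 and 0.38 with LOC3, beside 0.01 and 0.04 over all genes. Both strains were compared with the same LPS array, so an error in that array enters both differences. Dividing by the median of each array in place of the 75th percentile raised the median of all genes to 0.23 with either strain.

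*Nos2* intensities were 19696 for LPS, 32895 for LOC1 + LPS and 33264 for LOC3 + LPS. Both arrays with lactobacilli were above the one with LPS, and they differed from each other by less than the technical SD. On the log2 scale they exceeded LPS alone by 0.85 (LOC1, 1.81-fold) and 0.86 (LOC3, 1.81-fold), and 2.96% of genes well above background on both arrays had a difference as high with LOC1 and 2.6% with LOC3. Under median scaling it was 1.07 and 1.04, past 2-fold, where the median of all genes was 0.23.

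*Gch1*, which sets the pace of cofactor synthesis, had intensities of 35069 with LPS, 52461 with LOC1 + LPS and 51753 with LOC3 + LPS. From LPS alone it differed by 0.69 on the log2 scale with LOC1 (1.62-fold) and by 0.67 with LOC3 (1.59-fold), and 4.65% and 4.71% of genes had one as high. As for *Nos2*, the LPS array was the lowest of the 3 and the arrays of the 2 strains lay within the technical SD of each other. Across the other ways of scaling and background correction the difference ran from 0.63 to 0.91 with LOC1 and from 0.54 to 0.85 with LOC3.

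*Acod1* was bright on every array, with intensities of 158868, 187700 and 192228 for LPS, LOC1 + LPS and LOC3 + LPS. It was above LPS alone by 0.35 on the log2 scale with LOC1 (1.28-fold) and by 0.38 with LOC3 (1.30-fold). Differences as high were found in 15.6% and 14.2% of genes. The LPS array was the lowest, and the arrays of the 2 strains lay within the technical SD of each other.

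*Ass1*, the first enzyme that recycles citrulline, had intensities of 16467 with LPS, 19390 with LOC1 + LPS and 22066 with LOC3 + LPS. It was higher by 0.35 on the log2 scale with LOC1 (1.27-fold) and by 0.53 with LOC3 (1.44-fold), and 15.9% and 8.01% of genes had a difference as high. Its 3 arrays kept apart by more than the technical SD, with LPS lowest and LOC3 + LPS highest. *Asl*, the second enzyme, had intensities of 1821, 1863 and 1873 at its brighter probe, and differed by 0.15 (LOC1) and 0.14 (LOC3) on the log2 scale. Its dimmer probe was well above background with LPS alone, at 32.4, and read 10.3 with LOC1 + LPS and 13.2 with LOC3 + LPS, not well above background. That probe was at least 2.07-fold lower with LOC1 (log2 bound -1.05), with a bound of -0.61 for LOC3, so the 2 probes of *Asl* disagreed in direction, and the mean of both was -0.45 and -0.23.

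*Slc7a2* had intensities of 3096, 2669 and 2551 in the order LPS, LOC1 + LPS and LOC3 + LPS. The log2 differences from LPS, -0.10 for LOC1 and -0.18 for LOC3, turned to 0.12 and 0.01 under median scaling. The transporter therefore had no direction that held under each scaling.

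*Arg1* had intensities of 4.31 with LPS, 3.49 with LOC1 + LPS and 4.64 with LOC3 + LPS, and *Arg2* had 5.29, 3.50 and 4.66. Each was below the lowest signal well above background on its array (16.3, 14.5 and 19.8), so neither arginase had a level or a fold here. Each was read by 1 probe, *Arg1* at chr10:24636194-24636253 on the minus strand and *Arg2* at chr12:80252972-80253031 on the plus strand of mm9, and another stretch of either transcript was not measured.

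*Odc1*, the enzyme that commits ornithine to polyamines, had intensities of 18841, 15340 and 16286 at its brighter probe and 2137, 1688 and 1634 at its dimmer one. Log2 differences were -0.18 (LOC1) and -0.11 (LOC3) at the brighter probe and -0.23 and -0.28 at the dimmer one, and at the brighter probe they turned to 0.03 and 0.08 under median scaling. The LPS array was the highest of the 3 at both probes before that change of scaling.

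**Figure D2:**
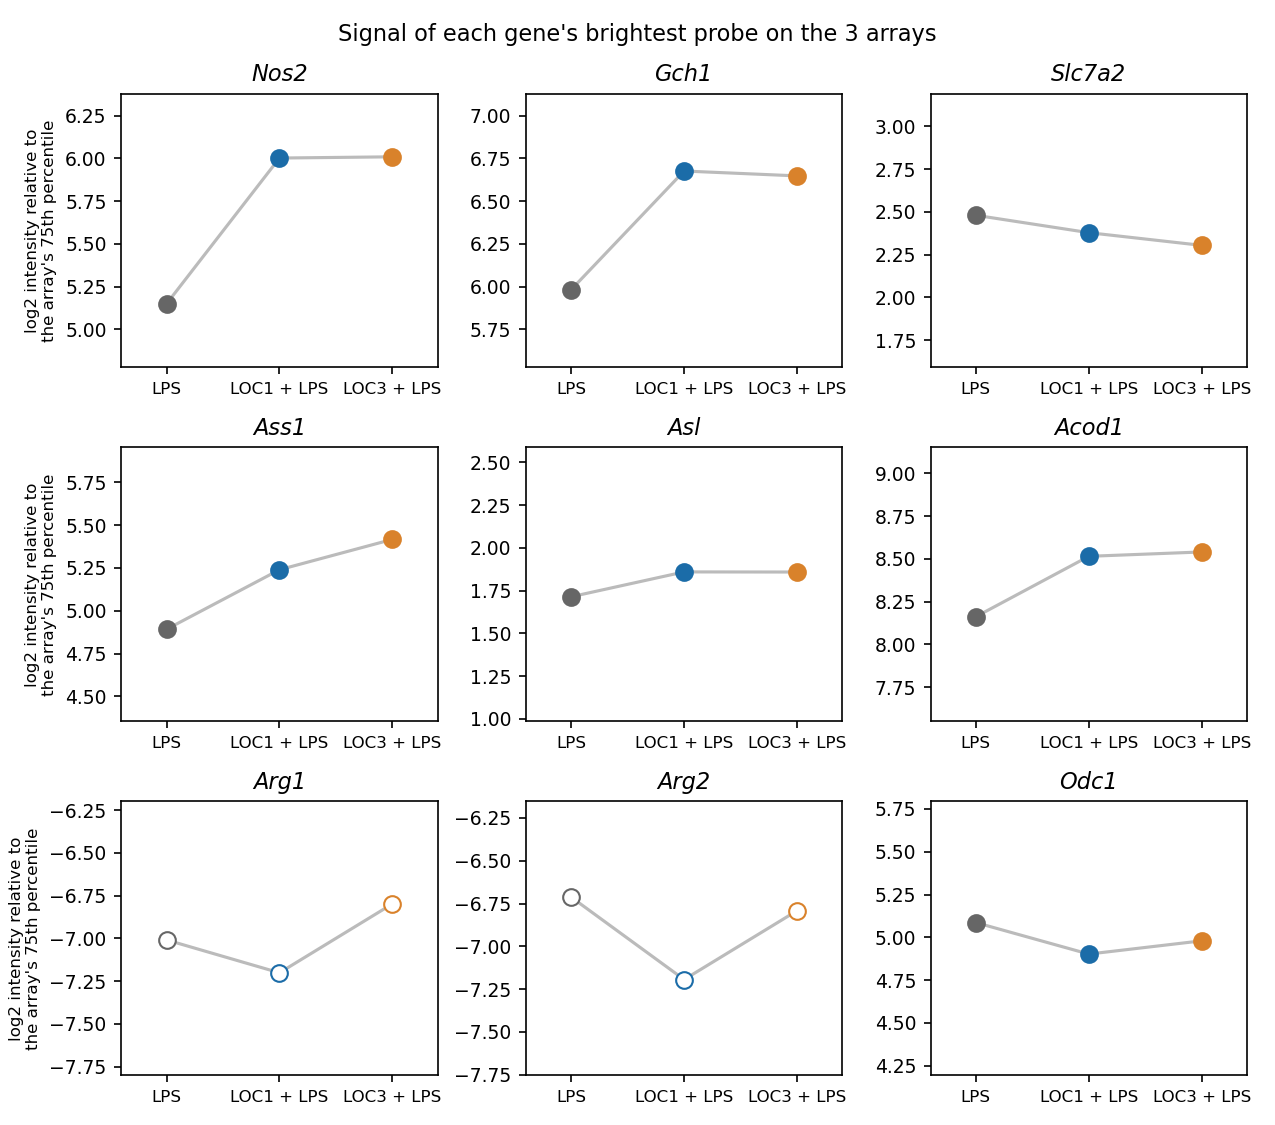
Log2 intensity after division by the 75th percentile of each array (vertical axes, each spanning the same width) of the brightest probe of the 9 genes on the 3 arrays, with 1 point per array and open points where the signal was not well above background. *Nos2* (5.15 with LPS, 6.01 with LOC3 + LPS) and *Gch1* have their low point with LPS alone, and *Arg1* and *Arg2* have only open points.

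**Figure D3:**
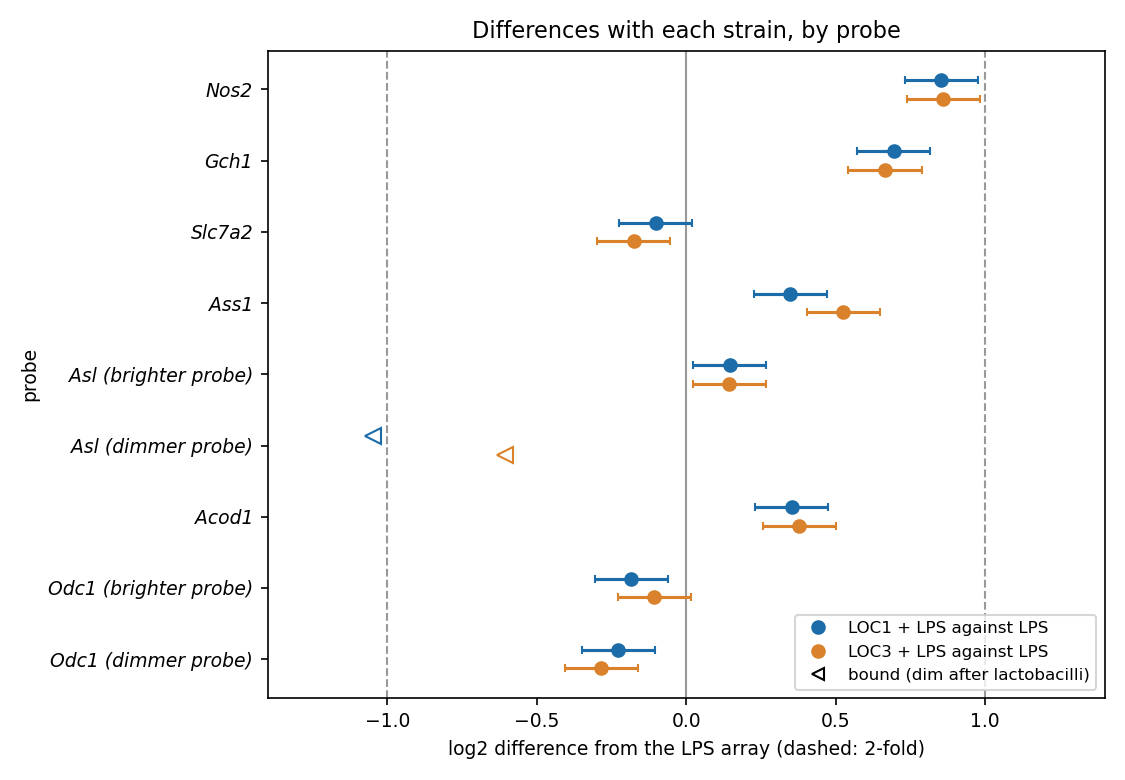
Log2 difference from the LPS array (horizontal axis) for the 9 probes of the 7 measurable genes, in blue for LOC1 + LPS and in orange for LOC3 + LPS. Bars are 2 technical SDs to each side from repeated spots, not replicates, triangles are bounds for the dimmer *Asl* probe, and dashed lines mark 2-fold, which no point of a gene's brighter probe reaches. The points of *Slc7a2* and of the brighter *Odc1* probe lie below 0 here and above it under median scaling.

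**Figure D4:**
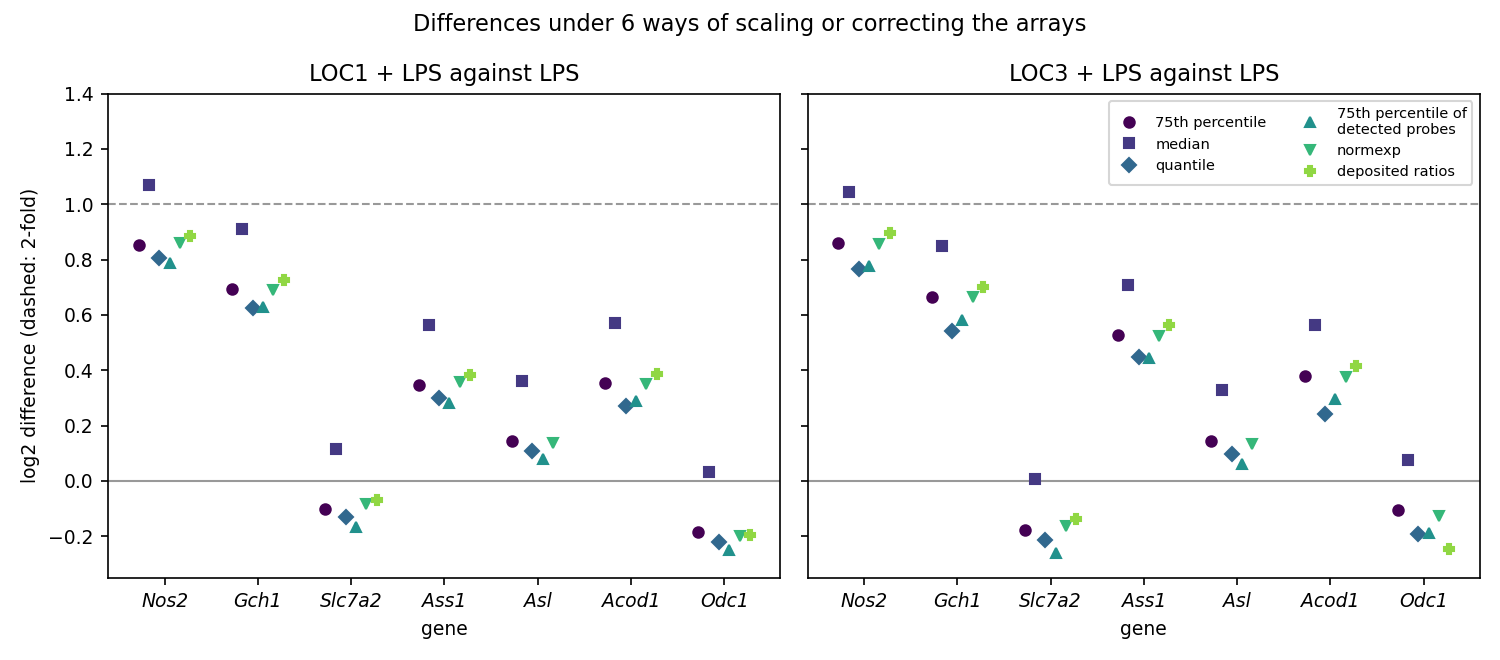
Log2 difference from the LPS array (vertical axis) of the 7 measurable genes under 6 ways of scaling or correcting the arrays, with LOC1 + LPS on the left and LOC3 + LPS on the right. The deposited ratios of *Odc1* are those of its dimmer probe, and *Asl* has none. *Nos2* passes 2-fold under median scaling, at 1.07 and 1.04, and *Slc7a2* and *Odc1* cross 0 under it.

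Between the strains the 7 genes differed little. None of the 7 passed 2-fold between LOC3 + LPS and LOC1 + LPS, where 1.83% of all genes were at least 2-fold higher with LOC3 and 0.8% lower. The widest log2 difference of LOC3 from LOC1 was that of *Ass1*, at 0.18, which stayed between 0.14 and 0.18 under the alternatives tried. *Nos2* differed by 0.01, *Acod1* by 0.03, *Gch1* by -0.03, *Slc7a2* by -0.07, *Odc1* by 0.08 and *Asl* by -0.00. The dimmer *Odc1* probe differed by -0.06, and under median scaling *Nos2* was at -0.03 and *Acod1* at -0.01, so none of the 3 had a settled direction between the strains. In all, 4 of the 7 were above 0, beside 55.1% of all genes.

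Promoters are given for *Acod1*, *Gch1* and *Ass1*, 3 of the genes that were higher both after LPS and with each strain, to show the sequence before their start sites. RefSeq promoters on GRCm38.p6 were matched for 4 of the 9 genes, the fourth being *Odc1*. Each run is the 250 bases before the start, 5′ to 3′ along the gene, with motif matches in capitals. *Acod1* is at chr14:103046762-103047011 on the plus strand, *Gch1* at chr14:47189414-47189663 on the minus strand and *Ass1* at chr2:31470020-31470269 on the plus strand.
Acod1: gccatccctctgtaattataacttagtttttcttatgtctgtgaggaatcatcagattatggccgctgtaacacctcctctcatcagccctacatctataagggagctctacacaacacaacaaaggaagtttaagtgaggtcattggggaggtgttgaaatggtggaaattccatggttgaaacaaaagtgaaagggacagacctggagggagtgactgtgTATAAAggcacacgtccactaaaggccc
Gch1: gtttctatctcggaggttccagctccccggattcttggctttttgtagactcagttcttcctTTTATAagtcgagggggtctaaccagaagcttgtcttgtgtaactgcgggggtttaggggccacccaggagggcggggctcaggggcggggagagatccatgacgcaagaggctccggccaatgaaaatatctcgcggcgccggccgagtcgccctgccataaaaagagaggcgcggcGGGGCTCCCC
Ass1: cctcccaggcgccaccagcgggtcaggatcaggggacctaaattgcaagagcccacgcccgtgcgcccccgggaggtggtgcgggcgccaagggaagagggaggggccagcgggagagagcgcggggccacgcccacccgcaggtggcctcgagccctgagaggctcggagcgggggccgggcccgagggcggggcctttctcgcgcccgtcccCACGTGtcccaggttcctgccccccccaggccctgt

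The motifs searched, on both strands, were the TATA box (TATAAA), the NF-kB motif, the interferon-stimulated response element, the GAS motif (TTCNNNGAA) and the E-box (CACGTG). *Acod1* held a TATA box from -28 to -23, a motif found in 12.4% of 32851 promoters of that length. *Gch1* held a TATA box on the opposite strand from -188 to -183 and an NF-kB match from -10 to -1, a motif found in 7.25% of promoters. *Ass1* held an E-box from -36 to -31, found in 6.02%, and *Odc1* held none of the 5. The other 2 motifs were found in 2.98% and 7.02% of promoters and in none of the 4. A match is a description of letters in this window and no evidence of a site.

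Beyond the 9 genes, 6 lists of related genes held 96 names, of which 95 were on the array. Of the 82 measurable with LOC1, *Sat1* was at least 2-fold higher and *Slc7a3* and *Slc25a10* were at least 2-fold lower. Of the 81 measurable with LOC3, *Sat1* and *Sugct* were at least 2-fold higher and none was 2-fold lower. Over all genes tested, 2.49% were at least 2-fold higher and 3.81% lower with LOC1, and 2.98% and 3.18% with LOC3. The median log2 difference of the lists together was 0.02 with either strain, close to that of all genes.

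Nitric oxide synthesis and tetrahydrobiopterin genes gave no gene past 2-fold among 14 measurable with each strain. Their medians were 0.20 (LOC1) and 0.17 (LOC3), and 10 of 14 were above 0 in each, beside 51.4% and 55.6% of all genes. Under median scaling the medians were 0.41 and 0.35 with 13 of 14 above 0 in each, where the median of all genes was 0.23. *Gchfr*, which encodes the feedback regulator of GTP cyclohydrolase, had intensities of 252 with LPS, 151 with LOC1 + LPS and 145 with LOC3 + LPS, and log2 differences of -0.63 and -0.70, at a probe in the dim class (technical SD 0.31). These came to -0.41 and -0.51 under median scaling and to -0.44 and -0.47 after normexp correction. *Nos3*, the endothelial synthase, had intensities of 327, 445 and 464, with differences of 0.56 and 0.61. *Nostrin*, which encodes a protein that binds this synthase, had 337, 452 and 416, with differences of 0.54 and 0.41. Among genes that sense or remove nitric oxide, none passed 2-fold of 5 measurable with LOC1 and 4 with LOC3. The kinase *Prkg2* was well above background with LOC1 + LPS alone (26.1), with a bound of 0.79 over LPS that came to 1.01, past 2-fold, under median scaling. Guanylate cyclase subunit *Gucy1b2* was well above background with LPS alone, at 22.7. The cGMP-dependent kinase *Prkg1* differed by 0.15 and 0.31, and the reductase *Cyb5r3* by -0.49 and -0.51, where its probes ran from -0.49 to 0.12 with LOC1.

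Arginine and cationic amino acid transport genes gave 1 gene past 2-fold of 9 measurable with LOC1 and none with LOC3. *Slc7a3*, a transporter related to *Slc7a2*, read 34.6 with LPS, and its signals after LOC1 (8.33) and LOC3 (18.2) were not well above background, so it was at least 2.20-fold lower with LOC1. It was not past 2-fold after normexp correction (-0.29), quantile normalization (-0.94) or median scaling (-0.92). *Slc7a1*, the widely expressed arginine transporter, was listed as higher after LPS (1.52 on the log2 scale) and differed by 0.47 with LOC1 and 0.42 with LOC3. *Slc3a2*, the heavy chain of several amino acid transporters, differed by 0.44 and 0.41. The probes of *Slc7a9* disagreed with LOC3, at -0.42 for the brighter one and a bound of 3.20 for the other, which was well above background on the LOC3 + LPS array alone. *Slc7a1* and *Slc3a2* were above the LPS array with each strain under the 5 scalings and corrections, unlike *Slc7a2*.

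Urea cycle, ornithine, proline and creatine genes had 3 of 14 above 0 with LOC1 and 4 of 14 with LOC3. The share over all genes was 51.4% and 55.6%. Their medians were -0.28 and -0.16. Under median scaling 6 and 8 of the 14 were above 0, and the medians moved to -0.06 and 0.03. None of the 14 passed 2-fold. The enzymes of creatine synthesis, which starts from arginine, had the lowest values. *Gamt*, which completes creatine, had intensities of 684 with LPS, 362 with LOC1 + LPS and 339 with LOC3 + LPS. Its log2 differences were -0.80 and -0.91, and it was already listed as lower after LPS alone, at -1.08. *Gatm*, which takes the amidino group of arginine for the first step, had intensities of 2919, 1579 and 1566 and differences of -0.77 and -0.79. Both enzymes were lower on each array with lactobacilli, by 1.71- to 1.88-fold. *Aldh18a1*, which makes the proline and ornithine precursor from glutamate, differed by 0.55 and 0.42. The urea cycle genes *Cps1*, *Otc* and *Nags* were not well above background on any array.

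Polyamine genes gave *Sat1* as the gene past 2-fold with each strain, 1 of 14 measurable. *Sat1*, the acetyltransferase that starts polyamine breakdown, had intensities of 2274 with LPS, 5798 with LOC1 + LPS and 5291 with LOC3 + LPS. It exceeded LPS alone by 1.46 on the log2 scale with LOC1 (2.76-fold) and by 1.32 with LOC3, the other of its 2 probes gave 1.15 and 1.07, and it was listed as higher after LPS alone, at 1.42. *Oaz2*, an antizyme that inhibits ornithine decarboxylase, differed by 0.60 and 0.54, and *Atp13a2*, a lysosomal polyamine exporter, by -0.48 and -0.45. Under each of the 5 scalings and corrections *Sat1* stayed past 2-fold and the other 2 stayed under it.

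Citrate cycle and itaconate breakdown genes were 26, all measurable, with medians of -0.02 with LOC1 and 0.02 with LOC3 (0.20 and 0.21 under median scaling). *Slc25a10*, the mitochondrial dicarboxylate carrier, had intensities of 470 with LPS, 175 with LOC1 + LPS and 230 with LOC3 + LPS. It was 2.48-fold lower with LOC1 (log2 difference -1.31) and had a difference of -0.93 with LOC3, which reached -1.01 when the 75th percentile was taken over detected probes. *Sugct*, a coenzyme A transferase of dicarboxylic acids, was dim, with intensities of 19.7, 36.3 and 38.1 and differences of 0.99 and 1.05, which came to 0.41 and 0.43 after normexp correction and to 1.21 and 1.24 under median scaling. Malate dehydrogenase *Mdh2* differed by 0.45 and 0.46. The aconitases, succinate dehydrogenase subunits and isocitrate dehydrogenases around the *Acod1* step lay between -0.24 and 0.27 in their brightest probes with either strain, while another *Sdha* probe read -1.22 and -1.08.

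**Figure D5:**
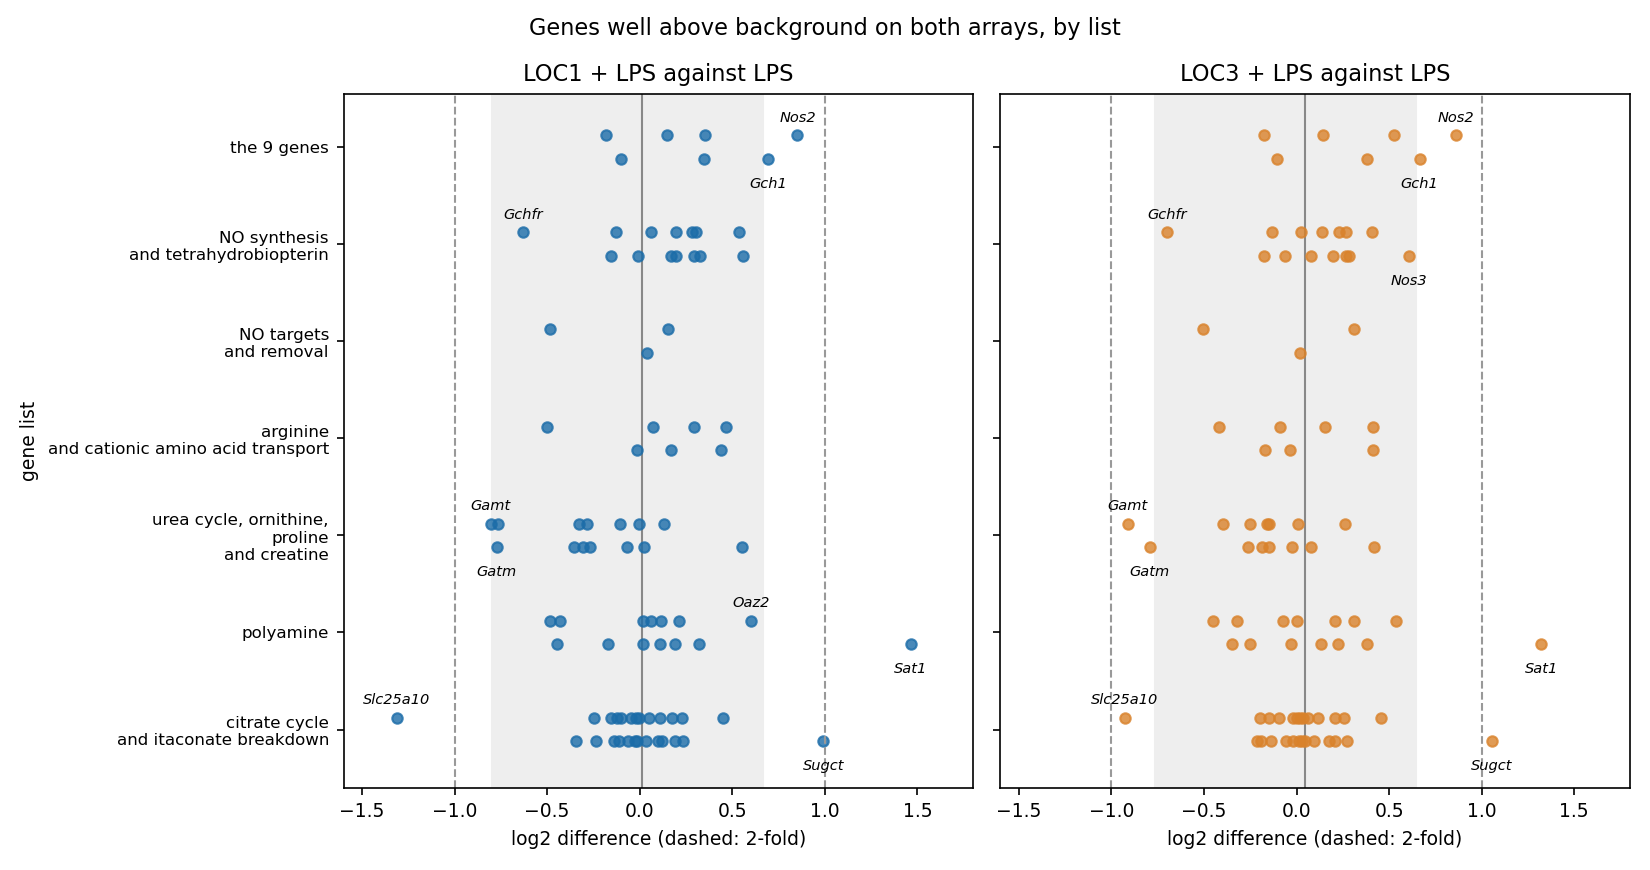
Log2 difference from the LPS array (horizontal axis) of each gene well above background on both arrays, by list, with LOC1 + LPS on the left and LOC3 + LPS on the right. The grey band holds the middle 90% of all genes, the grey line is their median and dashed lines mark 2-fold. *Sat1* lies past 2-fold on both sides (1.46 and 1.32), *Nos2* and *Gch1* lie at or above the top of the band, and *Gamt* lies at or below its bottom.

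In the deposited ratios of LPS alone, the arginine transport list held 3 genes listed as higher (*Slc7a1*, *Slc7a9*, *Slc25a29*) and 3 lower (*Slc7a4*, *Slc25a15*, *Slc25a2*). Among urea cycle and creatine genes *Pycr1* and *Prodh* were listed as higher and *Gamt* and *Glul* as lower, and polyamine genes were 2 higher (*Sat1*, *Oaz3*) and 2 lower (*Paox*, *Atp13a2*). In the nitric oxide synthesis list *Pcbd1* was listed as higher, and in the citrate cycle list *Idh1* and *Mdh1* were lower. With LPS, *Pcbd1*, *Slc25a29*, *Oaz3*, *Slc7a4* and *Slc25a2* had signals not well above background, so the LPS side of their ratios rests near background.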

How the data were processed

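RNA of 3 RAW264.7 samples (LPS, LOC1 + LPS, LOC3 + LPS) was measured on mouse SurePrint G3 arrays, with 1 array per group. The intensity of each spot was deposited by the authors as Feature Extraction 12.0.3.1 (per the file headers) wrote it, background-subtracted and detrended, with no scaling between arrays. The log2 ratios to unchallenged macrophages were deposited by the authors after normalization in GeneSpring, with sizes under 1 left out. Their listed medians were 1.05, -1.03 and -1.04, they followed the intensities up to a shift per array (0.15 and 0.14 for LOC1 and LOC3 relative to LPS), and how the reference was scaled is not given in the sources used here.

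Each array was divided by its 75th percentile, and log2 values were compared for the brightest probe of each gene detected on 1 or both arrays (well above background). Dim signals were raised to the lowest signal well above background on that array, which gives a bound ("at least N-fold"). Outlier spots (118 to 135 per array) were left out. The number of arrays limits the precision, so 2-fold was a fixed size, and the technical SD came from probes printed at least 10 times (269 bright, 10 to 12 dim). The t-test of the methods was not run, since each group has 1 array.

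The text names the 9 genes, pathway genes past 2-fold or, where a list had under 3 of them, up to 3 with the largest mean size, and, by choice after their values were seen, the genes of the list counts. Genes most like a member would have been named for a member past 2-fold, and there was none. The members and lists were chosen with earlier results of these data known. Python 3.11.15, numpy 2.4.6, pandas 2.3.3, matplotlib 3.10.9 and limma 3.58.1 in R 4.3.3 (normexp, offset 50) were used, and the procedure was tested on simulated data. Alternatives were median, quantile and detected-probe scaling, normexp, the filter, the mean of probes, outlier spots kept, a 3-fold threshold and the deposited ratios. Probe positions are mm9 from the files, and promoters are RefSeq on GRCm38.p6. Some genes of the lists and markers are not reported here.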

Additional observations from a re-analysis of the deposited data

How the results depend on the processing

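Of 186 values of the 7 measurable genes under the alternatives, 145 stayed within the technical SD of the value reported and 41 moved beyond it. Under median scaling 1 of the 7 genes, *Nos2*, passed 2-fold with LOC1 and 1, again *Nos2*, with LOC3, in place of 0. Under every other alternative that was run for it, the count of the 9 genes past 2-fold stayed at 0 for LOC1, LOC3 and LOC3 against LOC1, and 6 genes stayed listed after LPS. Pathway genes past 2-fold, 3 with LOC1 and 2 with LOC3, came to 10 and 7 with no filter and no floor on dim signals, to 0 and 0 at 3-fold, and to 1 with LOC3 after normexp correction. Over all genes, median scaling turned 499 higher and 762 lower with LOC1 into 884 and 472, and 589 and 629 with LOC3 into 863 and 393. With no filter and no floor there were 1434 higher and 2405 lower with LOC1 and 1649 and 2131 with LOC3. At 3-fold they were 184 and 226 with LOC1 and 255 and 144 with LOC3, and after normexp 213 and 208 and 252 and 158. Genes well above background on both arrays gave 296 and 416 with LOC3. Between LOC3 and LOC1, 354 higher and 155 lower became 68 and 37 by that filter, 111 and 42 after normexp, 213 and 70 at 3-fold and 1633 and 1181 with no filter. The share that was higher also moved by over 10 percentage points under quantile normalization, with 629 higher and 610 lower for LOC1. Apart from those whose construction shows it (fewer or more genes, another threshold), the cause was not tested. No paired analysis was possible because each group has 1 array. The t-test of the methods was not run for the same reason. Signals near background limit *Arg1*, *Arg2*, the dimmer *Asl* probe, *Slc7a3* and *Sugct*.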
